A study of Homo sapiens with 14 samples.

Results

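RNAs that code for RNA-binding proteins of many families were examined for C-to-U edits laid down next to RBFOX2 in fixed cells. The group held 45 genes, listed by symbol, out of 17611 annotated genes that carried at least 1 edit site on their own strand in any library. A site was given to a member when it lay on the strand and within the hg38 span of the gene in Gencode 44, and each of the 45 symbols was given 1 gene. The symbol MATR3 is also used for a readthrough gene, which was left out of the members. The list was drawn up by protein function, with earlier results of these data known. SYNCRIP, PCBP1 and PCBP2 are members that also carry hnRNP names.

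The cells were methanol-fixed HEK293T, a human embryonic kidney line. In RBFOX2 libraries a rabbit antibody against RBFOX2 was bound in the fixed cells and a fusion of an anti-rabbit nanobody with APOBEC1, a cytidine deaminase, was added, so that cytosines near the antibody were converted to uracil. Enzyme-only libraries received the fusion without the antibody, and Buffer-only libraries received neither. At each input, 1 ng and 100 pg of total RNA, there were 3 RBFOX2, 1 Enzyme-only and 3 Buffer-only libraries, 14 in all. All groups share the same cell line and fixation, no allele or transgene is named in the labels, and the replicates are separate slides that the study calls technical, so that p-values here measure only the spread between such slides. The single Enzyme-only library at each input has no replicate check and entered no test.

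RBFOX2 is a splicing regulator whose RRM domain binds UGCAUG in RNA, in introns beside alternative exons and also in 3′UTRs. RNA-binding proteins act on splicing, transport, translation and decay of other RNAs, and many are known to act on each other's transcripts and on their own. The genes listed here take part in stress granule assembly, silencing by miRNAs, deadenylation, poly(A) tail binding, RNA unwinding, paraspeckles and ribosome-associated control of mRNA.

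Libraries held 40162 to 42589 sites on both strands in the RBFOX2 group, 38007 in the Enzyme-only library and 20330 to 22543 in the Buffer-only group at 1 ng. At 100 pg there were 26554 to 27437 in the RBFOX2 group, 24829 in the Enzyme-only library and 18650 to 21140 in the Buffer-only group. Sites in the members were covered by a median of 34 to 40.5 reads in RBFOX2 libraries, 30 in the Enzyme-only library and 27 to 32 in Buffer-only libraries at 1 ng. The 100 pg medians were 49 to 56 in RBFOX2 libraries, 44 in the Enzyme-only library and 32 to 40.5 in Buffer-only libraries. For sites in all genes the medians were lower, 21 to 22 reads in RBFOX2, 20 in Enzyme-only and 20 in Buffer-only libraries at 1 ng. At 100 pg they were 26 to 27 in RBFOX2, 26 in Enzyme-only and 20 to 21 in Buffer-only libraries. The part of this coverage in the differences below, between groups and between the members and all genes, was not tested. In RNA from whole cultures, fewer cells and less RNA per cell cannot be told apart, and reads away from sites were not used here. Of 12 markers of other cell types, 3 held any site, and their sites summed to at most 2 in a library.

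The members held more sites in RBFOX2 libraries than in Buffer-only libraries at both inputs, and the difference was largest in 3′UTRs. At 1 ng the 45 genes summed to 338, 325 and 407 sites in the RBFOX2 libraries, 256 in the Enzyme-only library and 103, 109 and 109 in the Buffer-only libraries. There was no overlap between RBFOX2 and Buffer-only values, and the Enzyme-only library lay between them. The mean was 357 ± 44.1 sites in RBFOX2 and 107 ± 3.46 in Buffer-only libraries (SD, n = 3 each), a ratio of 3.33, beside a ratio of 2.64 for sites in all genes. At 100 pg the sums were 192, 189 and 163 in RBFOX2, 163 in Enzyme-only, and 88, 95 and 77 in Buffer-only libraries. Here the Enzyme-only library equalled the lowest RBFOX2 library, and the ratio of RBFOX2 to Buffer-only means was 2.09, beside 1.63 for all genes. These ratios depend on the reads asked of a site: with 2 or more edited reads the members' ratio was 5.62 at 1 ng, beside 3.45 for all genes, and 3.65 at 100 pg, beside 2.77. The strand opposite to the members gave 111 sites on average in RBFOX2, 109 in Enzyme-only and 109 in Buffer-only libraries at 1 ng, so the difference was seen on the strand of the genes. The library kit is not stated to keep strand; sites of overlapping genes on opposite strands are separated here by the converted base.

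By region, 3′UTRs of the members held 190, 204 and 229 sites in RBFOX2, 109 in Enzyme-only and 37, 35 and 36 in Buffer-only libraries at 1 ng. This was 58.4% ± 3.77 of the members' sites in RBFOX2 and 33.7% ± 1.99 in Buffer-only libraries (SD, n = 3 each), against 42.6% in the Enzyme-only library (95% Wilson interval 36.7 to 48.7). For sites in all genes the same shares were 43.8% in RBFOX2, 35.3% in Enzyme-only and 29.1% in Buffer-only libraries. Coding sequence gave means of 56.3 ± 11.4 sites in RBFOX2 and 29.7 ± 3.06 in Buffer-only libraries (SD, n = 3 each), against 48 sites in the Enzyme-only library. Introns held 48, 46 and 99 sites in RBFOX2, 73 in Enzyme-only, and 24, 28 and 30 in Buffer-only libraries. The Enzyme-only library was above 2 of the 3 RBFOX2 libraries there. At 100 pg the 3′UTR sums were 100, 96 and 84 in RBFOX2, 69 in Enzyme-only and 29, 30 and 25 in Buffer-only libraries. The groups again did not overlap in 3′UTRs.

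**Figure D1:**
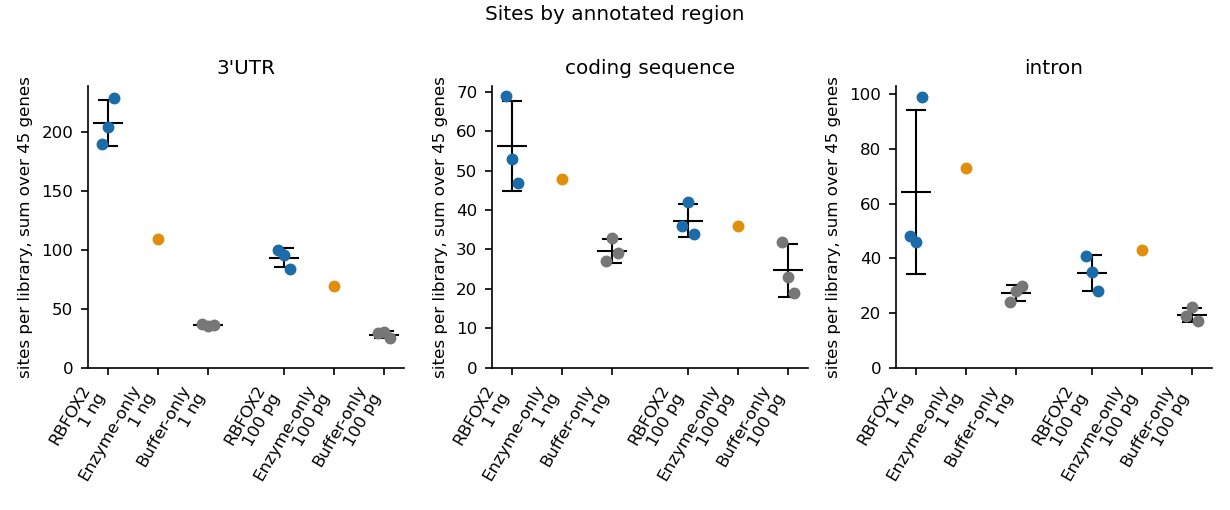
Sites per library (y axes, sum over the 45 genes) in 3′UTR, coding sequence and intron, for RBFOX2, Enzyme-only and Buffer-only libraries of either input. Each point is a library, and bars give the mean ± SD of 3; in 3′UTRs at 1 ng the RBFOX2 points lie between 190 and 229, the Enzyme-only point at 109 and the Buffer-only points between 35 and 37.

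The base before the edited cytosine also differed. APOBEC1 is known to favour a cytosine that follows A or U, and 81.1% ± 3.39 of the members' sites had A or U there in RBFOX2 libraries at 1 ng, 73.4% (95% Wilson interval 67.7 to 78.5) in the Enzyme-only library and 48.6% ± 3.23 in Buffer-only libraries (SD, n = 3 each). Sites resting on a single edited read made up 46.2% to 49.1% of the members' sites in RBFOX2 libraries, 48.8% in Enzyme-only (95% Wilson interval 42.8 to 54.9) and 61.5% to 77.7% in Buffer-only libraries. Sites of all genes had the same order, with A or U before 76.7% in RBFOX2, 72.7% in Enzyme-only and 47.9% in Buffer-only libraries, and a single edited read in 54.8% in RBFOX2, 55.3% in Enzyme-only and 65.5% in Buffer-only libraries. A or U stood before 68.3% to 78.1% of the members' sites in RBFOX2, 65.0% in Enzyme-only (95% Wilson interval 57.4 to 71.9) and 42.9% to 50.5% in Buffer-only libraries at 100 pg, beside means of 65.3% in RBFOX2 and 47.5% in Buffer-only libraries for all genes. These intervals cover counting error only.

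Sites near UGCAUG were counted as those no more than 50 nt from the middle of a UGCAUG on their own strand. In the members there were 24, 18 and 33 such sites in the RBFOX2 libraries of 1 ng, 7 in the Enzyme-only library, and 1, 5 and 4 in the Buffer-only libraries. As a share of the members' sites this was 6.92% ± 1.29 in RBFOX2 and 3.08% ± 1.88 in Buffer-only libraries (SD, n = 3 each), against 2.73% in the Enzyme-only library (95% Wilson interval 1.33 to 5.54). In all genes the shares were 6.08% in RBFOX2, 2.86% in Enzyme-only and 2.47% in Buffer-only libraries. At 100 pg the members held 7, 5 and 13 sites near the motif in RBFOX2, 2 in Enzyme-only, and 1, 3 and 6 in Buffer-only libraries. There the ranges of the RBFOX2 and Buffer-only groups overlapped. In 3′UTRs the members' 1 ng share was 9.43% ± 1.07 in RBFOX2 and 4.71% ± 4.35 in Buffer-only libraries (SD, n = 3 each). The Enzyme-only library had 1.83% (95% Wilson interval 0.50 to 6.44). For all genes the shares were 7.08% in RBFOX2, 3.29% in Enzyme-only and 2.85% in Buffer-only libraries. At 100 pg the members' share was 5.90% ± 3.14 in RBFOX2 and 8.70% ± 6.52 in Buffer-only libraries (SD, n = 3 each). These rest on 4, 4 and 8 sites in RBFOX2 and 1, 2 and 4 in Buffer-only libraries, against 2 of 69 in Enzyme-only. For all genes the 100 pg means were 6.12% and 3.31%.

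In 6 members each of the 3 RBFOX2 libraries of 1 ng held a site within 50 nt of UGCAUG at a position that was called in no Buffer-only library of that input: SERBP1, MATR3, DDX17, CAPRIN1, TNRC6B and DDX5. All 6 are among the 30 members with enough sites to be tested below, and the same held for 8.89% of all 2508 genes tested and for 1.73% of all genes with a site at that input. Since this rule chose the genes, and the motif with sites in most RBFOX2 libraries was then chosen in each, the contrast with Buffer-only libraries at these motifs is a description that the choice largely fixed. Near all motifs of a gene together, sites were also called in the other groups at 1 ng. The Enzyme-only library held 1 such site each in TNRC6B and DDX5. Buffer-only libraries held 0, 1 and 0 in SERBP1, 0, 0 and 1 in DDX17, 0, 2 and 0 in CAPRIN1, 1, 1 and 1 in TNRC6B, 0, 1 and 0 in DDX5 and none in MATR3.

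For each gene 30 bases of hg38 that hold the chosen motif and as many of the RBFOX2 sites of 1 ng as fit are shown 5′ to 3′ on the strand of the gene, so that the edits can be placed against the motif. Capitals mark the motif, written as DNA, and each cytosine called in an RBFOX2 library of 1 ng. All 6 motifs lie in annotated 3′UTRs. The windows hold 5 of the 7 sites around the SERBP1 motif, 5 of 12 for MATR3, 4 of 7 for DDX17, 2 of 3 for CAPRIN1, 0 of 3 for TNRC6B and 3 of 4 for DDX5.
SERBP1, chr1:67410028-67410057, minus strand: gTGCATGcaattttactttCtaaagtaaaC
MATR3, chr5:139330299-139330328, plus strand: tTGCATGtataatttgtgtttaCttgtaaC
DDX17, chr22:38485622-38485651, minus strand: cccccaaCttCtTGCATGttgaagatattt
CAPRIN1, chr11:34098677-34098706, plus strand: gatgttTGCATGtgaatgtgggttatgttC
TNRC6B, chr22:40333998-40334027, plus strand: cttgattataagTGCATGcatattatccac
DDX5, chr17:64499639-64499668, minus strand: aaatgaaggcaaTGCATGgcCttCcaataa

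Around the SERBP1 motif, at 1 ng, the RBFOX2 libraries held 3, 1 and 3 sites and the Enzyme-only and Buffer-only libraries held none. All 7 lay downstream of the motif. The cytosine 13 nt after its last base was edited in 1 of 50, 1 of 54 and 5 of 45 reads of the RBFOX2 libraries. Cytosines 23 and 25 nt after it were called in replicates 1 and 3, with up to 6 edited of 45 reads. The MATR3 motif had 2, 3 and 7 sites in the RBFOX2 libraries and none in the Enzyme-only or Buffer-only libraries of 1 ng. There the cytosine 16 nt after the motif was edited in 6 of 223, 6 of 225 and 8 of 260 reads, and at 100 pg in 13 of 162 reads of RBFOX2 replicate 2. A cytosine 31 nt before the MATR3 motif was called in the Enzyme-only library of 100 pg, with 16 of 274 reads edited, so sites near this motif were not limited to RBFOX2 libraries. These MATR3 sites also lie in the span of a readthrough gene and are counted in both genes.

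The DDX17 motif had 1, 3 and 3 sites in the RBFOX2 libraries and none in the Enzyme-only or Buffer-only libraries at 1 ng. At another motif in the DDX17 3′UTR there was, at 1 ng, 1 site in RBFOX2 replicate 1 and 1 in Buffer-only replicate 3. A cytosine 5 nt before the printed motif was edited in 1 of 17, 2 of 28 and 1 of 21 reads, and one 24 nt after it in replicates 2 and 3. The coverage of these positions was therefore low, and each call rests on 1 or 2 edited reads. At CAPRIN1 the cytosine 18 nt after the motif was edited in 2 of 21 and 1 of 17 reads of RBFOX2 replicates 1 and 2, while replicate 3 had 2 of 17 edited reads 34 nt after it. At DDX5 the 3 RBFOX2 libraries were edited at different positions, and in replicate 2 the edited base, in 2 of 71 reads, was the cytosine at base 3 of the motif itself. The DDX5 position 3 nt after the motif, edited in 4 of 70 reads of RBFOX2 replicate 1, was also called in a Buffer-only library of 100 pg with 2 of 61 reads. At the TNRC6B motif RBFOX2 replicates 1 and 3 held 1 and 2 sites, and the site of replicate 2 lay near another motif of that gene, where Buffer-only replicate 2 also held a site. RBFOX2 replicate 3 of 100 pg had 15 of 63 and 15 of 61 edited reads 32 and 39 nt after the TNRC6B motif, positions where Buffer-only replicate 3 of 100 pg had 1 of 30 and 1 of 28.

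**Figure D2:**
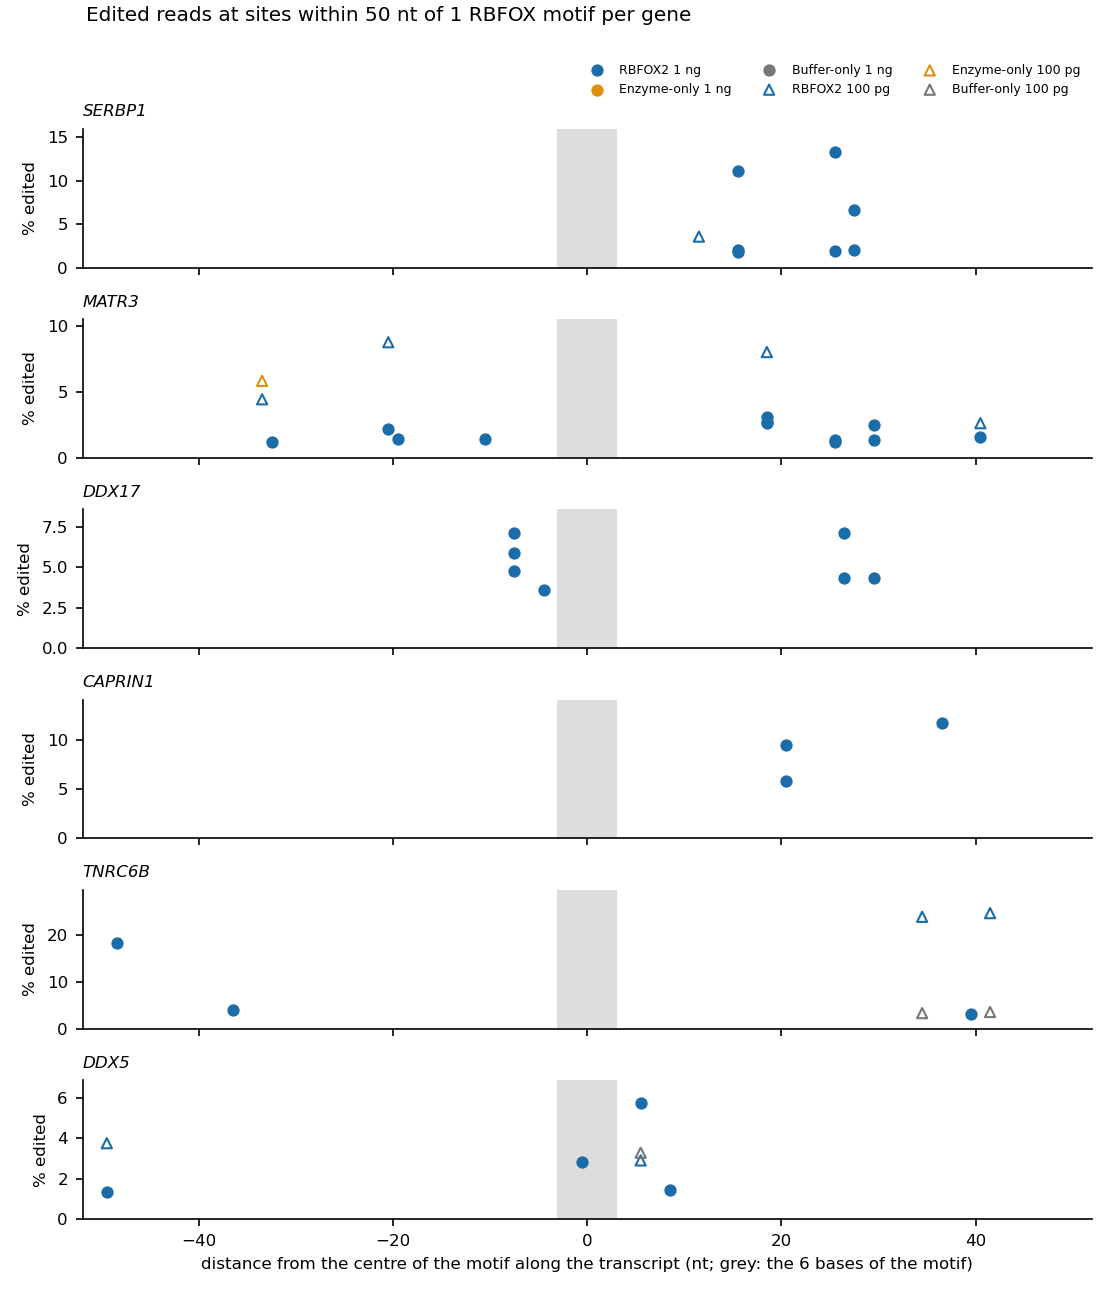
Percent of reads edited (y axis) at each called site against its distance in nt from the centre of 1 motif (x axis, grey band the motif) in 6 genes, with filled circles for 1 ng and open triangles for 100 pg. At 1 ng the points shown are RBFOX2 libraries, while at 100 pg MATR3 has 1 Enzyme-only point, TNRC6B 2 Buffer-only points and DDX5 1.

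The question for each gene was whether its number of sites differed between RBFOX2 and Buffer-only libraries beyond the general rise in sites. Sites per gene were tested with edgeR's quasi-likelihood test after TMM scaling, with Benjamini-Hochberg adjustment over all genes that passed a filter on low counts. Under this scaling the median log2 fold change over the 2508 genes tested at 1 ng was 0.20, 21 genes were called higher in RBFOX2 (0.837%) and 10 lower (0.399%) at an adjusted p under 0.05. Scaling by library totals moved that median to −0.04 and the calls to 18 higher and 22 lower. Of the 45 members 30 passed the filter, 1 was called higher and 0 lower. The filter scales sites to library size, and a gene could pass it through the libraries of 1 group alone. SERBP1, DDX3X and ZFR would not have passed through their Buffer-only libraries alone, nor YBX3 through its RBFOX2 libraries alone. The highest and lowest fold changes among the tested members are therefore not independent of the filter. The member called was SERBP1, with a log2 fold change of 1.96 (standard error 0.44, edgeR adjusted p = 0.043). The tested members had a median log2 fold change of 0.22, close to the 0.20 of all genes, and 19 of the 30 values were above 0. Before adjustment, p was under 0.05 for 6 members with higher and 1 with lower values, beside 11.2% and 5.34% of all genes tested.

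SERBP1 was not called under every setting. Its adjusted p ranged from 0.0015 to 0.318 over 16 alternatives, and 9 of them kept the call. It was not called when any 1 Buffer-only library was left out, nor by DESeq2, nor with scaling by library totals, nor with sites of 2 or more edited reads only, nor with a replicate block, which gave the highest of these p-values. The log2 fold change stayed between 1.68 and 3.23 in all 16.

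**Figure D3:**
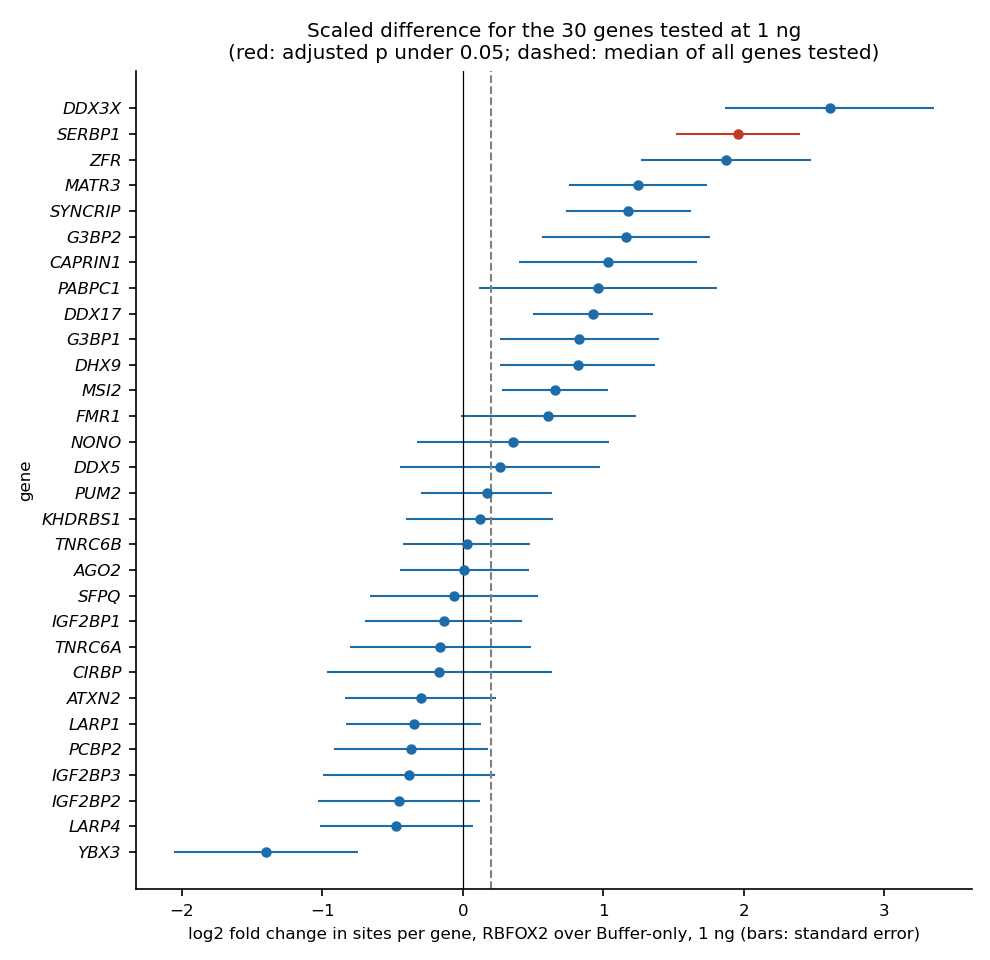
Log2 fold change in sites per gene, RBFOX2 over Buffer-only at 1 ng (x axis, points with standard errors), for the 30 genes tested (y axis). SERBP1 in red, at 1.96, is the gene with an adjusted p under 0.05, DDX3X at 2.61 has the highest value with a wider error, and the dashed line marks the median of all genes tested, 0.20.

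SERBP1 and SYNCRIP code for mRNA-bound regulators, SERBP1 a protein that associates with ribosomes and SYNCRIP a relative of the hnRNP R protein. SERBP1 had 21, 24 and 24 sites in the RBFOX2 libraries of 1 ng, 10 in Enzyme-only, and 1, 3 and 3 in Buffer-only libraries, and its 3′UTR alone had 20, 22 and 21 sites in RBFOX2, 3 in Enzyme-only, and 0, 0 and 2 in Buffer-only libraries. The groups stood well apart and the RBFOX2 libraries were close to one another. SERBP1 has 6 pseudogenes by name, so reads of near-identical copies are a source of uncertainty. At 100 pg it had 10, 7 and 21 sites in RBFOX2, 5 in Enzyme-only, and 1, 4 and 5 in Buffer-only libraries, with a log2 fold change of 1.17 (standard error 0.59, edgeR adjusted p = 0.37). SYNCRIP had 20, 14 and 17 sites in RBFOX2, 11 in Enzyme-only, and 2, 3 and 4 in Buffer-only libraries at 1 ng. Its scaled log2 fold change was 1.18 (standard error 0.44, edgeR adjusted p = 0.17). At 100 pg SYNCRIP had 4, 3 and 2 sites in RBFOX2, 2 in Enzyme-only, and 3, 2 and 1 in Buffer-only libraries, so the groups overlapped.

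The RNA helicases were DDX3X, which acts in translation initiation, DDX5 and its close relative DDX17, which act in splicing and transcription, and UPF1, the helicase of nonsense-mediated decay. The 4 summed to 43, 30 and 40 sites in RBFOX2, 16 in Enzyme-only, and 8, 9 and 7 in Buffer-only libraries at 1 ng. DDX3X had 10, 11 and 12 sites in RBFOX2, 3 in Enzyme-only, and 0, 1 and 1 in Buffer-only libraries, 8, 8 and 10 of the RBFOX2 sites lying in the 3′UTR. It gave the highest log2 fold change of the tested members, 2.61 (standard error 0.74), without passing the threshold (edgeR adjusted p = 0.080). At 100 pg DDX3X had 0, 4 and 3 sites in RBFOX2, 4 in Enzyme-only, and 2, 2 and 2 in Buffer-only libraries, and was not tested. DDX17 had 24, 13 and 20 sites in RBFOX2, 9 in Enzyme-only, and 4, 3 and 5 in Buffer-only libraries (log2 fold change 0.93, standard error 0.43, edgeR adjusted p = 0.29). DDX5 had 7, 6 and 8 in RBFOX2, 4 in Enzyme-only, and 2, 5 and 0 in Buffer-only libraries. UPF1 had 2, 0 and 0 in RBFOX2, 0 in Enzyme-only, and 2, 0 and 1 in Buffer-only libraries, so the members of this group were unlike.

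Among proteins that bind double-stranded RNA (ZFR, DHX9, STAU1 and ILF2), ZFR, a zinc finger protein, had 8, 15 and 24 sites in RBFOX2, 9 in Enzyme-only, and 2, 2 and 1 in Buffer-only libraries at 1 ng. Its 3′UTR held 5, 14 and 16 sites in RBFOX2, 3 in Enzyme-only, and none in Buffer-only libraries. Per length, this was 8.26 sites per kb of 3′UTR in RBFOX2 libraries on average, the highest of the 45 genes, followed by SERBP1 with 3.89, DHX9 with 3.63, MATR3 with 3.59 and DDX17 with 3.20. The DHX9 value rests on 2, 4 and 0 sites in a 3′UTR of 551 nt. In these genes there were 0 to 2.12 sites per kb in the Enzyme-only library and 0 to 0.53 in Buffer-only libraries on average. The scaled log2 fold change of ZFR was 1.87 (standard error 0.60, edgeR adjusted p = 0.11). At 100 pg ZFR had 3, 5 and 5 sites in RBFOX2, 2 in Enzyme-only, and 6, 3 and 4 in Buffer-only libraries, a log2 fold change of −0.74 (standard error 0.66, edgeR adjusted p = 0.71). DHX9, a helicase of double-stranded RNA, had 8, 14 and 9 sites in RBFOX2, 7 in Enzyme-only, and 3, 2 and 2 in Buffer-only libraries at 1 ng. STAU1 and ILF2 had 1 to 7 sites in RBFOX2, 7 and 1 in Enzyme-only, and 0 to 5 in Buffer-only libraries, and were not tested at 1 ng.

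MATR3, a nuclear matrix protein, had 11, 17 and 14 sites in RBFOX2, 6 in Enzyme-only, and 3, 2 and 2 in Buffer-only libraries at 1 ng. In its 3′UTR there were 7, 7 and 11 in RBFOX2, 0 in Enzyme-only, and 1, 0 and 1 in Buffer-only libraries. The scaled log2 fold change was 1.25 (standard error 0.49, edgeR adjusted p = 0.19). SFPQ, NONO and PSPC1, the proteins of paraspeckles, had 1 to 8 sites in RBFOX2, 0 to 5 in Enzyme-only and 0 to 3 in Buffer-only libraries at 1 ng, with log2 fold changes of −0.06 for SFPQ and 0.35 for NONO, while PSPC1 was not tested.

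The genes of silencing and deadenylation had the highest sums, 53, 59 and 99 sites in RBFOX2, 43 in Enzyme-only, and 29, 19 and 22 in Buffer-only libraries at 1 ng, and also some of the longest spans. MSI2, a Musashi protein that regulates translation, had 16, 21 and 30 sites in RBFOX2, 7 in Enzyme-only, and 6, 5 and 6 in Buffer-only libraries. Its 3′UTR held 11, 17 and 24 in RBFOX2, 4 in Enzyme-only, and 3, 1 and 2 in Buffer-only libraries, while its introns held 5, 3 and 3 in RBFOX2, 3 in Enzyme-only, and 2, 3 and 4 in Buffer-only libraries. The separation in MSI2 therefore lay in the 3′UTR, and the gene's log2 fold change was 0.66 (standard error 0.38, edgeR adjusted p = 0.40). PUM2, a Pumilio repressor, had 13, 8 and 21 sites in RBFOX2, 6 in Enzyme-only, and 6, 3 and 6 in Buffer-only libraries. TNRC6B, a GW182 scaffold that binds Argonaute, had 7, 13 and 18 in RBFOX2, 10 in Enzyme-only, and 5, 6 and 4 in Buffer-only libraries. After scaling neither stood apart, with log2 fold changes of 0.17 for PUM2 and 0.03 for TNRC6B. AGO2, TNRC6A and CNOT1 had 2 to 11 sites in RBFOX2, 4 to 10 in Enzyme-only and 0 to 6 in Buffer-only libraries.

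Stress granule genes summed to 47, 47 and 42 sites in RBFOX2, 38 in Enzyme-only, and 6, 14 and 15 in Buffer-only libraries at 1 ng. G3BP1, whose protein nucleates these granules, had 13, 13 and 14 sites in RBFOX2, 5 in Enzyme-only, and 0, 5 and 4 in Buffer-only libraries. CAPRIN1, a partner of G3BP1, had 17, 14 and 5 in RBFOX2, 10 in Enzyme-only, and 2, 4 and 1 in Buffer-only libraries, so that 1 RBFOX2 library was close to the Buffer-only range. G3BP2 had 6, 13 and 15 in RBFOX2, 11 in Enzyme-only, and 1, 3 and 2 in Buffer-only libraries. In ATXN2 the Enzyme-only library, with 12 sites, was above the 11, 7 and 8 of the RBFOX2 libraries, and Buffer-only libraries had 3, 2 and 8. The log2 fold changes were 1.16 for G3BP2, 1.03 for CAPRIN1, 0.83 for G3BP1 and −0.30 for ATXN2, none of which passed the threshold.

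The 5 lowest scaled values among the tested members came from YBX3, LARP4, IGF2BP2, IGF2BP3 and PCBP2, with means of 3.33 to 7.67 sites in RBFOX2 libraries. YBX3, a cold shock domain protein, had 2, 4 and 4 sites in RBFOX2, 4 in Enzyme-only, and 3, 2 and 6 in Buffer-only libraries at 1 ng, with a log2 fold change of −1.40 (standard error 0.65, edgeR adjusted p = 0.29). The unscaled groups overlapped. LARP4, which binds poly(A) RNA, had 7, 8 and 8 sites in RBFOX2, 9 in Enzyme-only, and 1, 6 and 6 in Buffer-only libraries (log2 fold change −0.47; the values in parentheses below are of the same kind). The IGF2BP proteins bind and stabilise mRNAs. IGF2BP2 had 4, 5 and 9 sites in RBFOX2, 4 in Enzyme-only, and 4, 3 and 3 in Buffer-only libraries (−0.45). IGF2BP3 had 3, 7 and 7 sites in RBFOX2, 11 in Enzyme-only, and 4, 3 and 2 in Buffer-only libraries (−0.39), the Enzyme-only library being highest. PCBP2, a KH domain protein that binds poly(C), had 6, 9 and 8 sites in RBFOX2, 6 in Enzyme-only, and 7, 2 and 3 in Buffer-only libraries (−0.37). These negative values are relative to the scaling, since the mean number of sites was higher in RBFOX2 than in Buffer-only libraries for all of these except YBX3. Without scaling the log2 fold changes of LARP4, IGF2BP2, IGF2BP3 and PCBP2 were above 0.

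The remaining members fill out the roles. In the fragile X family FMR1 had 8, 6 and 9 sites in RBFOX2, 8 in Enzyme-only, and 3, 2 and 1 in Buffer-only libraries at 1 ng, and FXR1 and FXR2 had 0 to 6 in RBFOX2, 2 and 4 in Enzyme-only, and 0 to 3 in Buffer-only libraries. IGF2BP1 had 11, 7 and 9 in RBFOX2, 11 in Enzyme-only, and 2, 8 and 2 in Buffer-only libraries. KHDRBS1 (Sam68) had 7, 9 and 11 in RBFOX2, 9 in Enzyme-only, and 2, 5 and 3 in Buffer-only libraries. The other KH domain genes KHSRP and PCBP1 had 1 to 4 in RBFOX2, 6 and 1 in Enzyme-only, and 1 to 3 in Buffer-only libraries. LARP1, which binds the 5′ end of mRNAs of the translation machinery, had 11, 5 and 15 in RBFOX2, 9 in Enzyme-only, and 4, 7 and 5 in Buffer-only libraries. The poly(A) binding proteins PABPC1, PABPC4 and PABPN1 had 2 to 7 sites in RBFOX2, 1 to 5 in Enzyme-only and 0 to 2 in Buffer-only libraries. The cold-inducible RBM3 had 10, 5 and 1 in RBFOX2, 1 in Enzyme-only, and 0, 0 and 1 in Buffer-only libraries. CIRBP and YBX1 had 1 to 5 in RBFOX2, 2 and 0 in Enzyme-only, and 0 to 3 in Buffer-only libraries. Of the nucleolar proteins, NPM1 had 4, 4 and 5 in RBFOX2, 1 in Enzyme-only, and 0, 1 and 1 in Buffer-only libraries. NCL had 0 to 3 in RBFOX2, 2 in Enzyme-only, and 0, 0 and 1 in Buffer-only libraries. NPM1, PABPC1 and YBX1 have 49, 13 and 10 pseudogenes by name, so their values are uncertain.

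**Figure D4:**
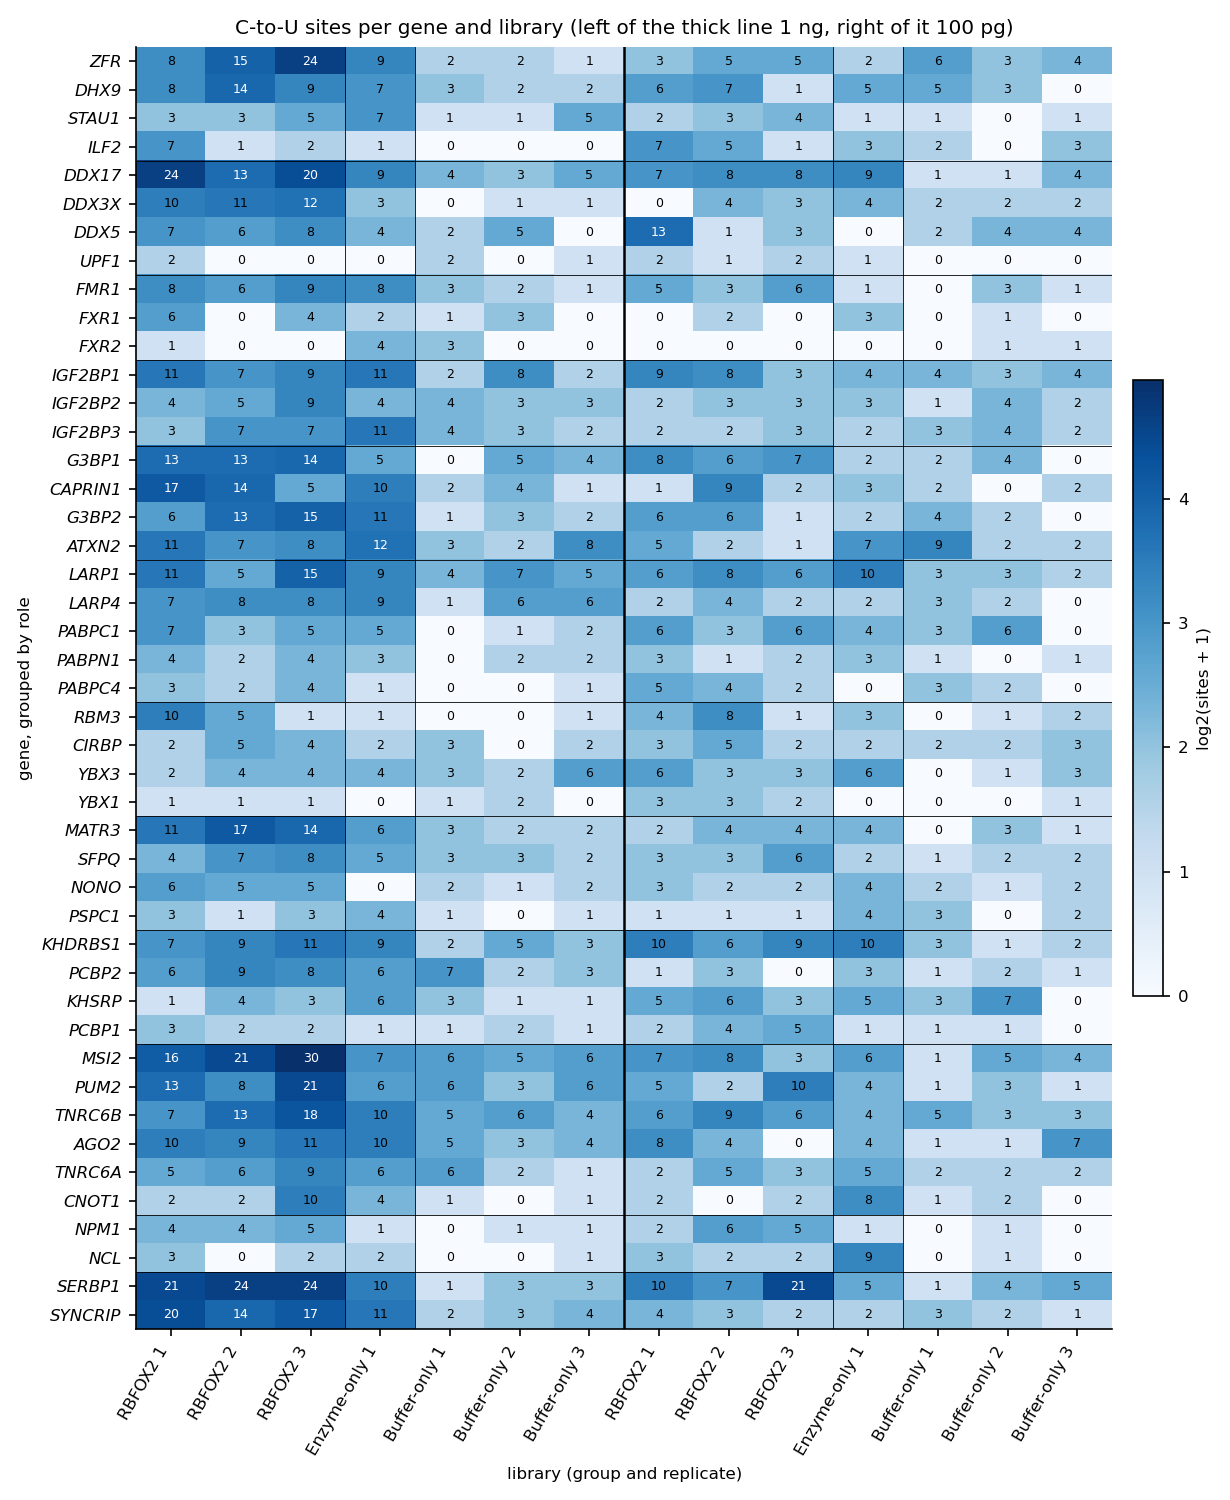
Sites in each of the 45 genes (rows, grouped by role) in each of the 14 libraries (columns; RBFOX2, Enzyme-only and Buffer-only, 1 ng left and 100 pg right of the thick line), with the number in the cell and the colour giving log2(sites + 1). SERBP1 stands out with 21 to 24 sites in the RBFOX2 libraries of 1 ng, 10 in Enzyme-only and 1 to 3 in Buffer-only.

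Across members, the lowest RBFOX2 library was above the highest Buffer-only library in 21 of the 30 tested at 1 ng before scaling, beside 49.5% of all genes tested, and in 25 of all 45, beside 16.5% of genes with a site. After TMM scaling this held for 9 of the 30, MATR3, ZFR, DDX17, SYNCRIP, DHX9, SERBP1, G3BP1, MSI2 and DDX3X, beside 16.2% of all genes tested. The reverse, all RBFOX2 libraries below all Buffer-only libraries after scaling, held for YBX3 alone, beside 9.65%. The mean number of sites was higher in RBFOX2 than in Buffer-only libraries in 41 of the 45 genes and lower in 3, beside 69.4% and 18.1% of genes with a site. Among the 30 tested it was higher in 29 and lower in 1, beside 92.3% and 5.94% of all genes tested, so these shares were near the background. The Enzyme-only library was above all Buffer-only libraries in 29 of the 45 genes, beside 35.7% of genes with a site, and in 21 of the 30 tested, beside 60.5% of all genes tested. It was below all RBFOX2 libraries in 15 of the 45, beside 12.8%, and in 11 of the 30, beside 32.5%. It was above all of them in 7 of the 45, beside 15.9%, and in 3 of the 30, beside 12.7%. The 7 were IGF2BP3, KHSRP, STAU1, FXR2, PSPC1, LARP4 and ATXN2.

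Single positions repeated across libraries were rare. Of 1557 positions called in the members at 1 ng, 6 were called in all 3 RBFOX2 libraries and in 0 Buffer-only libraries, or 0.385%, beside 0.0906% of positions in all genes. Positions also absent from the Enzyme-only library numbered 5, beside 0.0832% in all genes. The 6 lay in 3′UTRs of DDX17, MATR3, MSI2, SERBP1 and, with 2 positions, ZFR. Of these, 1 ZFR position was also called in the Enzyme-only library, with 5 of 44 reads edited, against 3 of 29, 2 of 21 and 1 of 37 in the RBFOX2 libraries. The other ZFR position was edited in 1 of 62, 7 of 51 and 2 of 52 reads of the RBFOX2 libraries, and the MSI2 position in 1 of 16, 2 of 17 and 1 of 7. The DDX17, MATR3 and SERBP1 positions are those described beside the printed sequences, and the nearest UGCAUG to the MSI2 position lay 3623.5 nt away. At 100 pg no member position was called in all 3 RBFOX2 libraries, beside 0.0297% of positions in all genes that were called in these and in no Buffer-only library and 0.0265% that were also absent from Enzyme-only, and no member position was called in all 3 Buffer-only libraries at either input.

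Clusters of edits, which FLARE calls in each library where edits are denser than the background, gave the same order of groups at 1 ng. Members held 261, 259 and 294 clusters in RBFOX2, 218 in Enzyme-only, and 99, 103 and 99 in Buffer-only libraries at 1 ng, a ratio of RBFOX2 to Buffer-only means of 2.70, beside means of 24235 and 10671 for all clusters. At 100 pg there were 156, 156 and 129 in RBFOX2, 139 in Enzyme-only, and 83, 93 and 76 in Buffer-only libraries, a ratio of 1.75, beside 1.42. There the Enzyme-only library was above the lowest RBFOX2 library. The deposited list of confident RBFOX2 clusters, after clusters of the Buffer-only list were taken out, held 18 clusters in 12 members at 1 ng, or 2.32% of its 776 clusters. For scale, the members held 1.14% of the sites in all genes in RBFOX2 libraries of that input on average. The share of all genes with a confident cluster was not counted, so the 12 members have no background beside them. The 12 genes were CAPRIN1, DDX17, DDX3X, DDX5, FMR1, LARP4, MATR3, MSI2, SERBP1, SYNCRIP, TNRC6B and ZFR. Of the 18 clusters 17 lay in 3′UTRs and 1, in SYNCRIP, in coding sequence. The motif UGCAUG stood inside 4 of them, in DDX17, MATR3, SERBP1 and ZFR, or 22.2%, beside 12.9% of the whole list. MSI2 carried 4 confident clusters, none with the motif within 50 nt.

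The MATR3 cluster held 2, 3 and 8 sites with 9, 12 and 36 edited reads in the RBFOX2 libraries of 1 ng, and none in the Enzyme-only and Buffer-only libraries of that input. At 100 pg the same interval held 0, 2 and 2 sites in RBFOX2, 1 site with 16 edited reads in Enzyme-only, and none in Buffer-only libraries. The longer ZFR cluster held 3, 2 and 11 sites with 3, 9 and 22 edited reads in RBFOX2, and none in Enzyme-only or Buffer-only libraries at 1 ng. The DDX3X cluster held 5, 1 and 2 sites with 12, 4 and 7 edited reads in RBFOX2 libraries and none in the others. The authors built the confident list by intersecting clusters over the 3 replicates, with a setting that keeps a whole interval where it overlaps another cluster. A kept interval therefore need not hold a site of each replicate, and some held none in a replicate. The confident clusters in FMR1 and LARP4 held sites in RBFOX2 replicate 3 alone among the 14 libraries. Those in DDX5, in the coding sequence of SYNCRIP and in MSI2 from chr17:57681065 and chr17:57681290 held none in RBFOX2 replicate 2 of 1 ng. At 100 pg the confident list held 1 cluster in a member, in the 3′UTR of SERBP1, with sites in 2 of the 3 RBFOX2 libraries. The Buffer-only list held 1 cluster in a member, in the 5′UTR of SYNCRIP at 100 pg.

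At 100 pg, 20 members passed the filter, and edgeR called 0 of them in either direction, beside 0.114% of the 874 genes tested called higher and 0.0% lower. Before adjustment, p was under 0.05 for 0 members, beside 11.4% higher and 2.52% lower among all genes tested. DESeq2 called 0 members and 0 of all genes tested. The members' median log2 fold change was 0.35, beside 0.13 for all genes tested. After scaling, the RBFOX2 libraries were above all Buffer-only libraries in KHDRBS1 and LARP1, 2 of the 20, beside 16.2% of all genes tested, and below all of them in 0, beside 5.61%. Before scaling the RBFOX2 libraries were above all Buffer-only libraries in 6 of the 20, beside 25.2% of genes tested, and in 13 of all 45 members, beside 4.79% of genes with a site. KHDRBS1 had 10, 6 and 9 sites in RBFOX2, 10 in Enzyme-only, and 3, 1 and 2 in Buffer-only libraries, and LARP1 had 6, 8 and 6 sites in RBFOX2, 10 in Enzyme-only, and 3, 3 and 2 in Buffer-only libraries. In KHDRBS1 the Enzyme-only library equalled the highest RBFOX2 library, and in LARP1 it was above it.

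The difference between inputs was tested as an interaction over the 12 RBFOX2 and Buffer-only libraries. Of 33 members tested 0 were called by edgeR, beside 0.0% of 2197 genes, and DESeq2 called 0 members and 0 of all genes. Before adjustment p was under 0.05 for 3 members, 2 with positive values and 1 with a negative value, beside 5.33% of all genes. These were ZFR, with a log2 fold change at 1 ng above that at 100 pg by 2.49 (standard error 0.94, edgeR adjusted p = 0.83), DDX3X with 2.99 (standard error 1.32, adjusted p = 0.83) and YBX3 with −2.28 (standard error 1.17, adjusted p = 0.89).

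In other families of RNA-binding proteins 0 genes were called by edgeR or by DESeq2 at either input. This says little, since DESeq2 called 0 of all genes tested at either input. Calls by edgeR among all genes tested were 0.837% higher and 0.399% lower at 1 ng, and 0.114% higher and 0.0% lower at 100 pg. Of 22 hnRNP genes 15 were tested at 1 ng, with a median log2 fold change of 0.51, and p was under 0.05 before adjustment for 2 higher and 1 lower. Of 14 SR genes 9 were tested, with a median of 0.37 and 2 higher and 0 lower before adjustment. Of 26 close relatives of the members 11 were tested, with a median of 0.01 and 1 higher and 1 lower. Among all genes tested at 1 ng, 11.2% were higher and 5.34% lower before adjustment. The medians at 100 pg were 1.31 for 9 hnRNP genes, 1.40 for 8 SR genes and 0.49 for 3 close relatives, beside 0.35 for the members and 0.13 for all genes tested. Before adjustment 4 hnRNP genes, 4 SR genes and 0 close relatives were then higher and 0 were lower. The shares of all genes tested were 11.4% higher and 2.52% lower. The differences between these lists and the members were not tested.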

How the data were processed

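The members, lists and tests were chosen with earlier results of these data known. Per the labels and the methods of the study, reads were trimmed with cutadapt, freed of repeats and aligned to hg38 with STAR 2.4.0. The authors called sites with SAILOR (score above 0.5, fraction edited below 0.8, known variants removed). The deposited site files give a score and counts of edited and of all reads, from which the edit fraction was computed, and no site had fewer than 5 reads. The authors called clusters with FLARE (false discovery rate 0.1, merging within 15 nt), and the deposited files give a score, counts, an edit fraction and the mean coverage signal.

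Sites were assigned to Gencode 44 genes by strand and span, a site in the spans of several genes counting in each, with the region taken in the order 3′UTR, 5′UTR, coding, noncoding exonic, intronic, the first 3 from protein-coding transcripts only (Python 3.11.15, pandas 2.3.3, bedtools 2.31.1, pysam 0.24.0, matplotlib 3.10.9). Sequences were read from hg38. Sites per gene were tested with edgeR 4.0.16 (R 4.3.3, TMM, quasi-likelihood test, Benjamini-Hochberg adjustment at 0.05), with 6 libraries per input. All 12 RBFOX2 and Buffer-only libraries were used for the difference between inputs. The filter asked for a minimum count of 3, scaled to library size, in enough libraries and for 5 sites in all. The edgeR step was tested on simulated data. Alternatives were DESeq2 1.42.0, other scalings and filters, a replicate term, stricter sites and leaving out each library. Genes were named with values if called, if among the 10 with most RBFOX2 sites or the 5 highest or 5 lowest fold changes at 1 ng, if they held a confident cluster or a position called in RBFOX2 libraries alone, or if they had the most sites of their role group; other members were named after their values were seen. No p-value was computed for sums over the members.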

Additional observations from a re-analysis of the deposited data

Results flagged for a closer look

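The Enzyme-only libraries entered no test, and their sites in the 45 members were above those of all Buffer-only libraries at both inputs. At 1 ng the Enzyme-only library held 256 sites, against 103 to 109 in the 3 Buffer-only libraries. At 100 pg it held 163 sites, against 77 to 95. The part of the enzyme without antibody in the difference between RBFOX2 and Buffer-only libraries was not tested, since there was 1 Enzyme-only library at each input.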

How the results depend on the processing

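At 1 ng, 1 member was called by the test as reported. The number was 0 with DESeq2, with scaling by library totals, with a replicate block and with 2 or more edited reads per site (12 members tested), 18 without scaling and 3 with no filter on low counts (SERBP1, DDX3X and ZFR); leaving out 1 library at a time gave 0 to 3. No pairing by replicate number was seen: correlations of same-numbered libraries lay between −0.05 and 0.01. With few sites per gene such correlations can lie near 0 in paired libraries too, so they cannot decide whether the libraries are paired. The block added no call among members. The number of members called was 0 without each of the Buffer-only replicates 1, 2 and 3, and 3 without RBFOX2 replicate 1. Over all genes at 1 ng the 31 calls became 0 with DESeq2 and with the replicate block, 972 without scaling, 101 with no filter, 7 with 2 or more edited reads and 51 with sites in 1 gene only, and 0 to 86 without 1 library. At 100 pg members had 0 calls in all 15 alternatives that tested any, while the default filter tested none; the 1 call over all genes became 0 with DESeq2, with library totals, with the default filter and with 2 or more edited reads, 93 without scaling and 0 to 9 without 1 library. The interaction gave 0 member calls in 10 alternatives, 2 of them (coverage of 10 or more, sites in 1 gene only) chosen after seeing the data.

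With 2 or more edited reads per site the ratio of RBFOX2 to Buffer-only sites was 5.62 in place of 3.33 at 1 ng and 3.65 in place of 2.09 at 100 pg. With a FLARE score of at least 0.99 the cluster ratio at 1 ng was 2.20 in place of 2.70, beside 1.56 for all clusters. The Enzyme-only library then held 119 clusters in the members, against 117, 126 and 147 in RBFOX2 libraries. At 100 pg it held 84 such clusters, against 103, 96 and 75. It thus lay within the RBFOX2 range at both inputs. The difference in the share of sites near UGCAUG at 100 pg, 0.73 points, was −0.88 without RBFOX2 replicate 3 and −0.72 without Buffer-only replicate 1, in a range up to 2.61 over single libraries left out. Without scaling the log2 fold changes of LARP4, IGF2BP2, IGF2BP3 and PCBP2 were 0.81, 0.82, 0.89 and 0.92, and without Buffer-only replicate 1 those of IGF2BP3 and PCBP2 were 0.073 and 0.50 (lowest −0.52 for each with a library left out). The cause of these changes was not tested. Few sites per gene limit these tests, since 15 of the 45 members did not pass the filter on site counts at 1 ng and 25 at 100 pg.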
